A study of Mus musculus with 8 samples.

Results

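Collagens are the triple-helical proteins of the extracellular matrix. This account covers the 42 collagen genes measured in hair follicle stem cells of mice, out of 18193 named genes. A gene was taken when its annotated symbol was Col, a number, the letter a and a number. Only probe sets annotated to a single symbol were used, and each gene was read from its brightest one, by the mean of the 8 arrays. The 42 genes were covered by 82 such probe sets, and 27 genes had more than 1. They comprise 11 fibrillar chains, 6 basement membrane chains, 5 beaded filament chains, 9 FACIT chains (fibril-associated collagens with interrupted triple helices), 4 transmembrane chains, 2 multiplexins, 3 short chains, the anchoring fibril chain Col7a1 and Col26a1. Of the genes looked for, Col6a6, Col21a1 and Col28a1 had no probe set of this kind.

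Cells were sorted from telogen skin, the resting phase of the hair cycle, into 4 groups of 2 arrays: Runx1 iTG hair germ, wild-type (WT) hair germ, Runx1 iTG bulge and WT bulge. All sorted cells carried keratin 15-driven GFP and surface α6-integrin. The hair germ was the CD34-negative fraction and the bulge, which holds long-lived stem cells, was the CD34-positive fraction. Runx1 iTG mice carried a Tet-on Runx1 transgene, whose tissue driver the labels do not name. All mice, WT included, were fed doxycycline for 1 day (food with 1 g per kg), which the labels describe as a means to repress H2BGFP. The mice were at postnatal day 20, except that replicate 2 of Runx1 iTG hair germ and of Runx1 iTG bulge was labelled day 21. The labels call the samples biological replicates. They do not say whether hair germ and bulge samples of one replicate number came from the same animal.

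Fibrillar collagens form the cross-striated fibres that give connective tissue its tensile strength, and FACIT collagens lie on the surface of those fibres. Type IV collagen forms the sheet-like network of basement membranes, type VI collagen forms beaded microfilaments beside them, type XVII collagen is a transmembrane protein of hemidesmosomes, and type VII collagen forms the anchoring fibrils that tie the epidermal basement membrane to the dermis. In skin most fibrillar collagen is made by dermal fibroblasts, while keratinocytes are a known source of types IV, VII and XVII, and hair follicle stem cells depend on type XVII for their maintenance.

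Of the 42 genes, 33 had a promoter in the RefSeq-derived table for mouse build GRCm38.p6. The 250 bases upstream of the start are shown for 4 genes, in the sense direction: Col6a1 and Col6a2, the collagens with the widest gap between hair germ and bulge, and Col7a1 and Col17a1, which join basal keratinocytes to their matrix. Capitals mark a RUNX hexamer (TGTGGT), a GC box (GGGCGG) or a TATA box (TATAAA), each searched on both strands, so that a motif on the other strand reads as its reverse complement. Different motifs of the 3 can share at most an end base. Col6a1 lies at chr10:76726045-76726294 (minus strand), Col6a2 at chr10:76623631-76623880 (minus strand), Col7a1 at chr9:108953336-108953585 (plus strand) and Col17a1 at chr19:47692043-47692292 (minus strand).
Col6a1: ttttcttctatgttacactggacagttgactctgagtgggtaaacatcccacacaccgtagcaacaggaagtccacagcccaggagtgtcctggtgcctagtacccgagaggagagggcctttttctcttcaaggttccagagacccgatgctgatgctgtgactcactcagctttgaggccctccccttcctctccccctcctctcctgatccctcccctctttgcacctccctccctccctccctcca
Col6a2: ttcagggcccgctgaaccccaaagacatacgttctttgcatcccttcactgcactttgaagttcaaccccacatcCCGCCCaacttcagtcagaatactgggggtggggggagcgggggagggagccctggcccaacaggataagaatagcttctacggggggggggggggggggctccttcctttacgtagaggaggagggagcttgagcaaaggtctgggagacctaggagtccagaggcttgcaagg
Col7a1: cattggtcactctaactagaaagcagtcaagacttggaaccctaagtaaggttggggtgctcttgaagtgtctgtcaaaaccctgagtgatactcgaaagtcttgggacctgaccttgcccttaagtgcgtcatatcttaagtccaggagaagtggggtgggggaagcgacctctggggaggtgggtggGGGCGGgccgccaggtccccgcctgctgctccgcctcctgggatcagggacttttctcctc
Col17a1: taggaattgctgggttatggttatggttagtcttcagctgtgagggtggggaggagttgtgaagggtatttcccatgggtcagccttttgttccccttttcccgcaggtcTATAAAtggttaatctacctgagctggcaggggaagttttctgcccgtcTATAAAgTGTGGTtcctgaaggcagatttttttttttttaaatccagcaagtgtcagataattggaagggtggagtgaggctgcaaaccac
The Col6a1 window held none of these motifs. The Col6a2 and Col7a1 windows each held 1 GC box. The Col17a1 window held 1 RUNX hexamer and 2 TATA boxes. Over the 35 collagen promoters of the table, 2 held the RUNX hexamer (Col17a1 and Col8a1, 5.71%), against 14.2% of all 27025 promoters of the same length. A GC box was present in 21 of the 35 (60%), against 33% of all promoters, and a TATA box in 5 of the 35 (14.3%), against 13% of all. The median GC content was 59.2% over the 35 collagen promoters, against 52% over all promoters. The part of GC content in these motif shares was not tested. A match describes these letters only and says nothing on binding.

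The labels were checked first. Runx1 intensity lay between 12107 and 19461 on the 4 Runx1 iTG arrays and between 489 and 904 on the 4 WT arrays. Cd34 lay between 2.42 and 53.2 on the hair germ arrays and between 4902 and 11208 on the bulge arrays. All 6 keratinocyte markers were above background on both arrays of every group, and their summed intensity was 55136 to 82244 in hair germ and 92380 to 116732 in bulge. Averaged over genotypes, 4 of the 6 passed the test as lower in hair germ, where 9.11% of all genes did. Their median difference was -0.75 on the log2 scale, hair germ minus bulge, and the lowest was -1.66 for Itgb4. Of the 6 hair germ markers, Bmp4 was higher in hair germ, Cdh3, Lef1 and Gli1 were lower there, and Shh and Fgf5 did not pass the test. Background was set at 31.1, the 95th percentile of 27 bacterial control probe sets. On each hair germ array 69 to 73.7% of probe sets exceeded it, and on each bulge array 73.6 to 77% did. By Xist and Eif2s3y, replicate 1 of every group was male-like and replicate 2 female-like, so the spread between replicates includes sex. Among collagens above background on both arrays of a group, the median gap between replicates was 1.54-fold in Runx1 iTG hair germ, 1.44-fold in WT hair germ, 1.47-fold in Runx1 iTG bulge and 1.37-fold in WT bulge.

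Collagen transcripts were lower in hair germ than in bulge. Averaged over both genotypes, 18 of the 42 genes were lower in hair germ at an adjusted p under 0.05 and 0 were higher, where 9.11% of all 18193 genes were lower and 9.17% were higher (18.3% in either direction). By unadjusted p under 0.05, 30.5% of all genes and 24 collagens passed in either direction. The median difference over the 42 collagens was -1.22 on the log2 scale, or -0.76 with members below background held at their bound, against -0.09 over all genes. On all 4 hair germ arrays 21 collagens lay below all 4 bulge arrays, where 11.6% of all genes did, and 0 lay above, where 10.8% did. Every p here comes from limma, fitted to all genes on log2 intensity with Benjamini-Hochberg adjustment, and differences are hair germ minus bulge with their standard error (SE). In such sorted bulk samples, fewer cells of a type and less RNA per cell cannot be told apart.

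**Figure D1:**
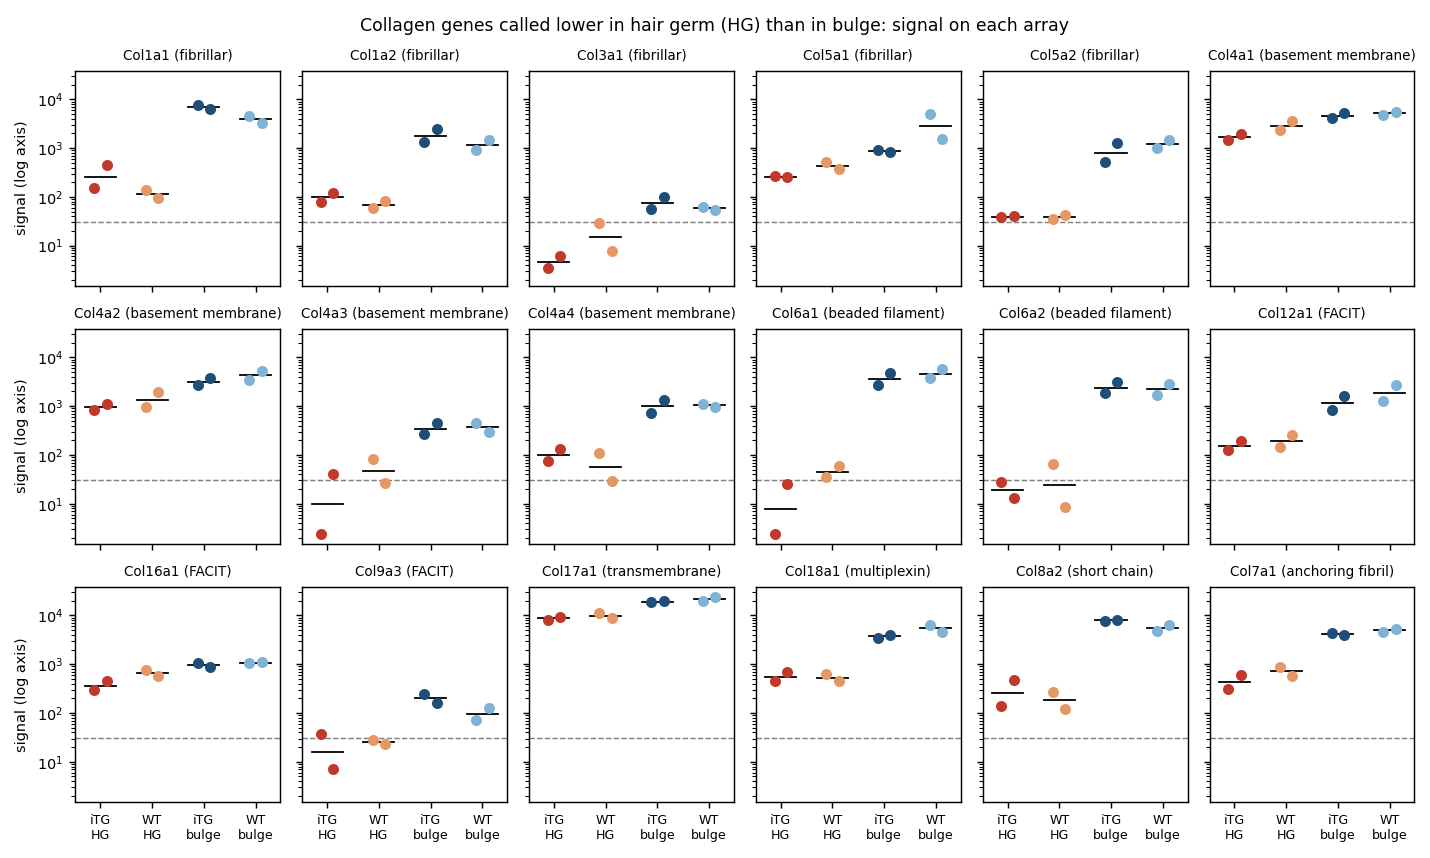
Scaled intensity on a log axis of the 18 collagen genes that passed the test between hair germ and bulge, with 1 point per array and a bar at the mean of the 2 log2 values in Runx1 iTG hair germ, WT hair germ, Runx1 iTG bulge and WT bulge; the dashed line is the background of 31.1. Col6a1 and Col6a2 lie between the floor and 66.4 in both hair germ groups and at 1697 or above in bulge, whereas Col17a1 stays at 8198 or above in all 4 groups.

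Fibrillar chains. Of the 11 fibrillar genes, 5 were lower in hair germ and 0 were higher, 9 had a negative difference, and the class median was -1.85 (-0.91 with the bound). Col1a1, which encodes the α1 chain of type I collagen, had 151 and 445 intensity units in Runx1 iTG hair germ, against 7741 and 6377 in Runx1 iTG bulge. It had 138 and 95.7 units in WT hair germ, against 4639 and 3217 in WT bulge. All 4 hair germ arrays lay far below the lowest bulge array, and the fitted level was 30.2-fold lower in hair germ (log2 difference -4.92, SE 0.32, adjusted p 1.36e-05). Col1a2, which encodes the partner chain, had 78.9 and 120 units in Runx1 iTG hair germ and 1305 and 2459 in Runx1 iTG bulge. In WT it had 58.4 and 83.4 units in hair germ and 911 and 1492 in bulge. The groups did not overlap, and Col1a2 was 17.5-fold lower in hair germ (-4.13, SE 0.32, adjusted p 2.88e-05).

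Type V collagen is a minor component of type I fibres that sets their diameter. Its Col5a2 chain had 38.0 and 40.4 units in Runx1 iTG hair germ and 509 and 1250.03 in Runx1 iTG bulge. WT mice had 34.4 and 42.3 units in hair germ and 1003 and 1444 in bulge. The hair germ arrays lay just over background and close together, and Col5a2 was 25.3-fold lower there (-4.66, SE 0.36, adjusted p 2.96e-05). Its Col5a1 chain had 268 and 255 units in Runx1 iTG hair germ and 895 and 812 in Runx1 iTG bulge. The WT values were 517 and 374 in hair germ and 5099.7 and 1531 in bulge. Col5a1 was 4.55-fold lower in hair germ (-2.19, SE 0.34, adjusted p 0.00167), and its WT bulge replicates lay further apart than those of any other group. Col3a1, the chain of type III collagen, had 3.42 and 6.03 units in Runx1 iTG hair germ and 57.8 and 99.9 in Runx1 iTG bulge. Its WT arrays read 29.2 and 7.81 in hair germ and 62.8 and 53.9 in bulge. It was below background on all 4 hair germ arrays and above it on all 4 bulge arrays, so the difference is a bound: Col3a1 was at least 2.14-fold lower in hair germ (adjusted p 0.0086, or 0.0718 with day 20 arrays only). A bound of this kind is the brighter group's mean divided by the background of 31.1. The remaining 6 fibrillar genes did not pass the test, with adjusted p between 0.0539 for Col24a1 and 0.969 for Col2a1.

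Basement membrane chains. Of the 6 type IV genes, all had a negative difference, 4 were lower in hair germ past the threshold, and the class median was -1.42. These genes lie on the genome in neighbouring pairs, Col4a1 with Col4a2, Col4a3 with Col4a4, and Col4a5 with Col4a6. By the brightest probe sets, the size of the difference went with the pair. That depended on the probe set: the second one of Col4a3 gave -1.98 and the second one of Col4a1 gave -1.73. Col4a1 and Col4a2, the chains of the common type IV network, were lower by 2.22-fold and 3.24-fold. Col4a1 had 1476 and 1909.6 units in Runx1 iTG hair germ and 4041 and 5261 in Runx1 iTG bulge. For WT, it had 2314 and 3541 units in hair germ and 4707 and 5589 in bulge (-1.15, SE 0.19, adjusted p 0.00258). Col4a1 thus stayed well above background in hair germ, with no overlap between the populations. Col4a2 had 833 and 1115 units in Runx1 iTG hair germ and 2680.2 and 3791 in Runx1 iTG bulge. In the WT groups it had 946 and 1965 units in hair germ and 3502 and 5369 in bulge (-1.70, SE 0.26, adjusted p 0.00172).

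Col4a3 and Col4a4 encode chains of the restricted α3α4α5 network, best known from the kidney glomerulus. Col4a4 had 76.9 and 135 units in Runx1 iTG hair germ and 732 and 1345 in Runx1 iTG bulge. In WT it had 108 and 29.8 units in hair germ and 1106 and 979.9 in bulge. Col4a4 was 13.4-fold lower in hair germ (-3.74, SE 0.43, adjusted p 0.000297) and above background on 3 of the 4 hair germ arrays. Col4a3 had 2.42 and 40.5 units in Runx1 iTG hair germ and 266 and 455 in Runx1 iTG bulge. WT mice had 83.2 and 26.4 units in hair germ and 457 and 293 in bulge. With 2 of the 4 hair germ arrays below background, its difference of -4.05 (SE 0.81, adjusted p 0.00683) rests partly on values near the floor of 2.42. Col4a5 and Col4a6, which pair with each other in the epidermal basement membrane, did not pass the test. Col4a5 had 584 and 1060.0 units in Runx1 iTG hair germ and 1331 and 1433 in Runx1 iTG bulge. The WT values were 1069 and 976 in hair germ and 1530.2 and 1201 in bulge (-0.61, SE 0.22, adjusted p 0.083). Its hair germ arrays all lay below its bulge arrays, though by little. Col4a6 had a difference of -0.22 (SE 0.22, adjusted p 0.569), with overlapping groups.

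Beaded filament chains. Among the 5 type VI genes, 2 were lower in hair germ, 0 were higher and 2 had a positive difference. The class median of -1.17 became 0.06 with the bound, since the other members were dim in every group. Col6a1 had 2.42 and 25.6 units in Runx1 iTG hair germ, both below background, against 2651 and 4779 in Runx1 iTG bulge. It had 35.1 and 59.1 units in WT hair germ, against 3699 and 5856 in WT bulge. The populations were far apart in both genotypes: Col6a1 was at least 114-fold lower in hair germ of Runx1 iTG and 102-fold lower in hair germ of WT. Averaged over genotypes, its difference was -7.75 (SE 0.63, adjusted p 3.51e-05), or -6.76 with the bound. Its neighbour Col6a2 had 27.7 and 13.0 units in Runx1 iTG hair germ and 1834 and 3100 in Runx1 iTG bulge, at least 76.6-fold lower in hair germ. Its WT arrays read 66.4 and 8.43 in hair germ and 1697 and 2854 in bulge. Only 1 of the 4 hair germ arrays was above background, and the difference averaged over genotypes was -6.76 (SE 0.59, adjusted p 5.99e-05), or -5.93 with the bound. The third chain of the classical type VI heterotrimer, Col6a3, did not follow this pattern. Col6a3 had 36.4 and 39.2 units in Runx1 iTG hair germ and 40.1 and 25.6 in Runx1 iTG bulge. For WT, it had 50.7 and 18.1 units in hair germ and 27.8 and 6.86 in bulge, so it lay around background in all groups (0.68, SE 0.66, adjusted p 0.54).

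FACIT chains. Of the 9 genes, 8 had a negative difference, 3 were lower in hair germ, 0 were higher, and the class median was -1.28 (-1.06 with the bound). Col12a1, the chain of type XII collagen on type I fibres, had 124 and 191 units in Runx1 iTG hair germ and 831 and 1647 in Runx1 iTG bulge. In the WT groups it had 147 and 254 units in hair germ and 1303 and 2683 in bulge. The populations did not overlap, and Col12a1 was 8.59-fold lower in hair germ (-3.10, SE 0.34, adjusted p 0.000235). Col16a1, the chain of type XVI collagen, had 291 and 449 units in Runx1 iTG hair germ and 1084 and 879 in Runx1 iTG bulge. In WT it had 750 and 581 units in hair germ and 1041 and 1089 in bulge. Its groups also did not overlap, but the fall was smaller, at 2.09-fold (-1.06, SE 0.22, adjusted p 0.00741). Col9a3, a chain of type IX collagen known from cartilage, had 36.4 and 7.24 units in Runx1 iTG hair germ and 244 and 161 in Runx1 iTG bulge. WT mice had 27.5 and 23.4 units in hair germ and 70.5 and 127 in bulge (-2.76, SE 0.60, adjusted p 0.0108), with 1 of 4 hair germ arrays above background. Held at its bound the difference was -2.08, and in WT, where both hair germ arrays were below background, Col9a3 was at least 3.04-fold lower. Without WT bulge replicate 2 its adjusted p was 0.0615. Col20a1, the third gene by mean level in this class, had 150.2 and 220.3 units in Runx1 iTG hair germ and 266 and 403 in Runx1 iTG bulge. The WT values were 81.8 and 203 in hair germ and 417 and 316 in bulge. Its arrays did not overlap between populations, but it missed the threshold (-1.17, SE 0.36, adjusted p 0.0509). In a limma fit over all probe sets, another Col20a1 probe set passed as lower (-1.42, SE 0.41, adjusted p 0.0462). Further ones gave -0.61 (adjusted p 0.449) and -1.55 (adjusted p 0.31).

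Transmembrane and anchoring chains. Col17a1 had 8198 and 9294 units in Runx1 iTG hair germ and 18777 and 19489.7 in Runx1 iTG bulge. Its WT arrays read 11059 and 8962 in hair germ and 19985 and 24392 in bulge. The hair germ arrays thus lay close together, below all bulge arrays, and Col17a1 was 2.20-fold lower in hair germ (-1.14, SE 0.15, adjusted p 0.000677). Col7a1 had 313 and 604 units in Runx1 iTG hair germ and 4383 and 4044 in Runx1 iTG bulge. For WT, it had 877 and 575 units in hair germ and 4627 and 5366 in bulge. Its populations were also separate, and Col7a1 was 8.24-fold lower in hair germ (-3.04, SE 0.24, adjusted p 2.96e-05). Col23a1, another transmembrane chain, had 152 and 187 units in Runx1 iTG hair germ and 45.0 and 120 in Runx1 iTG bulge. In the WT groups it had 66.8 and 109 units in hair germ and 123 and 124 in bulge, and did not pass the test (0.33, SE 0.43, adjusted p 0.672). The other transmembrane chains, Col13a1 and Col25a1, were on both arrays of no group above background.

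Multiplexins and short chains. Col18a1 encodes type XVIII collagen, a basement membrane proteoglycan whose C-terminal fragment is endostatin. It had 445 and 692 units in Runx1 iTG hair germ and 3509 and 3942 in Runx1 iTG bulge. In WT it had 624 and 457 units in hair germ and 6456 and 4608 in bulge. The populations did not overlap, and Col18a1 was 8.27-fold lower in hair germ (-3.05, SE 0.21, adjusted p 1.78e-05). Col15a1, the other multiplexin, had a difference of 0.44 with an SE of 1.26, because its replicates lay far apart in 3 of the 4 groups. Col8a2, a chain of type VIII collagen known from endothelial and corneal basement membranes, had 137 and 475 units in Runx1 iTG hair germ and 7642 and 8182 in Runx1 iTG bulge. WT mice had 275 and 121 units in hair germ and 4689 and 6308 in bulge. Col8a2 was 30.4-fold lower in hair germ (-4.93, SE 0.38, adjusted p 2.98e-05). Col8a1, the partner chain of type VIII collagen, behaved otherwise. It had 204 and 519 units in Runx1 iTG hair germ and 435 and 621 in Runx1 iTG bulge, while in WT it had 808 and 863 units in hair germ and 547 and 354 in bulge. Its difference averaged over genotypes was 0.12 (SE 0.32, adjusted p 0.846), with opposite signs in the 2 genotypes. Col10a1, the type X chain known from growth plate cartilage, did not pass the test either (0.23, SE 0.47, adjusted p 0.804).

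**Figure D2:**
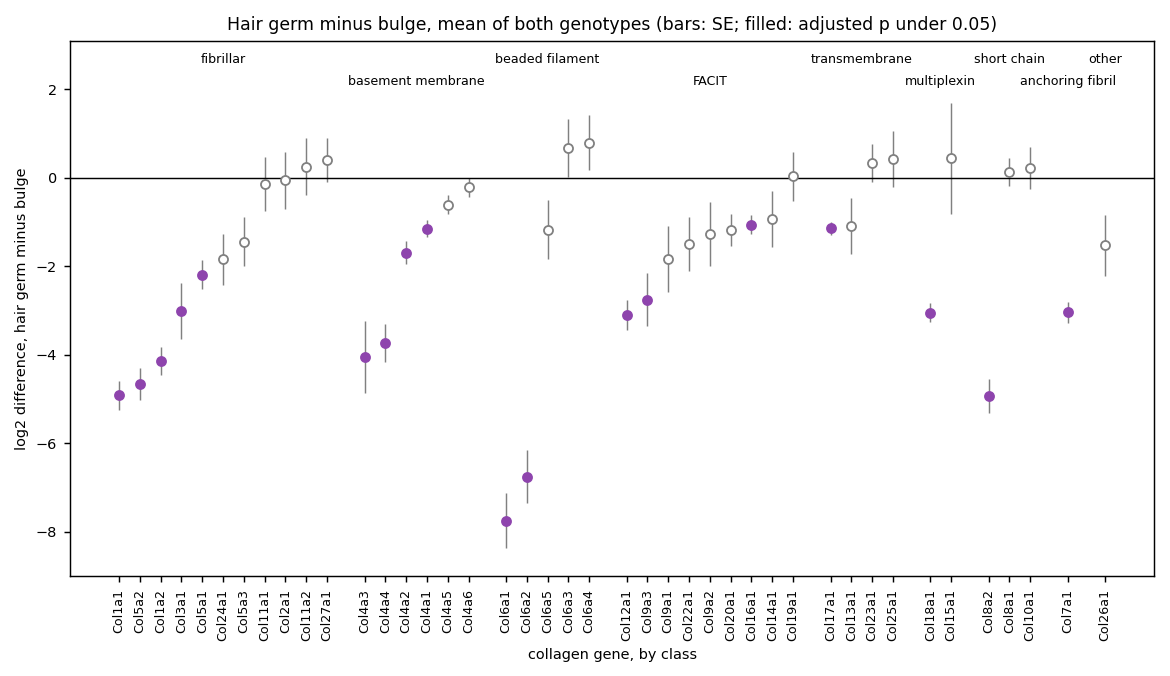
Difference between hair germ and bulge in log2 intensity, averaged over genotypes, for the 42 collagen genes arranged by class; each point is a gene with its SE, and filled points passed an adjusted p under 0.05. All 18 filled points lie below 0, from -1.06 for Col16a1 to -7.75 for Col6a1, and each class except that of Col26a1 alone holds at least 1 of them.

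With values below background held at their bound, the fibrillar genes that passed ran from -1.09 (Col3a1) to -4.92, type IV genes from -1.15 to -3.72 and FACIT genes from -1.06 to -3.10, so that these 3 classes overlapped in size. The 2 type VI genes, at -5.93 and -6.76, lay beyond those ranges. Of the members with a group mean above background in at least 1 group, 5 of 9 fibrillar, 4 of 6 basement membrane, 2 of 4 beaded filament and 3 of 8 FACIT genes passed; since the brighter population decides this filter, these shares are a description only. Detection itself was uneven. Of the 42 genes, 19 were above background on all 8 arrays and 3 on none. In bulge, 27 genes were above background on all 4 arrays, while in hair germ 19 were. Detection over all probe sets was also lower in hair germ, at 69 to 73.7% on an array against 73.6 to 77% in bulge. The share of all genes detected on all 4 arrays of a population was not counted. Col3a1, Col5a3, Col6a2 and Col9a3 were above background on all 4 bulge arrays and on at most 1 hair germ array. The 9 genes that were above background on both arrays of no group were Col11a1, Col11a2, Col13a1, Col24a1, Col25a1, Col26a1, Col6a5, Col9a1 and Col9a2.

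The fall in hair germ was seen in both genotypes. In Runx1 iTG mice 17 collagens were lower in hair germ and 0 were higher, where 5.26% of all genes were lower and 4.5% higher (9.76% in either direction). In WT mice 13 were lower and 0 higher, where 3.79% of all genes were lower and 3.14% higher (6.93% in either direction). The 12 genes that passed in both genotypes were Col1a1, Col1a2, Col4a2, Col4a4, Col5a2, Col6a1, Col6a2, Col7a1, Col8a2, Col12a1, Col17a1 and Col18a1. Those 12 are 12 of 17 genes of the first list and 12 of 13 of the second. Col3a1, Col4a1, Col4a3, Col9a3 and Col16a1 passed in Runx1 iTG alone and Col5a1 in WT alone. The difference between the genotypes' differences, fitted as an interaction, passed for 0 of the 42 genes by limma, and for 0% of all genes. At an unadjusted p under 0.05 it reached 2 collagens, Col6a4 (3.41, SE 1.24) and Col8a1 (-1.60, SE 0.64), both with an adjusted p of 1, and 4.61% of all genes. The numbers of calls depended on single arrays. Without Runx1 iTG bulge replicate 2 the count in Runx1 iTG was 8 and without Runx1 iTG hair germ replicate 1 it was 9. Without WT bulge replicate 2 the count in WT was 8. With the averaged comparison, leaving out each array in turn gave 17 to 19.

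**Figure D3:**
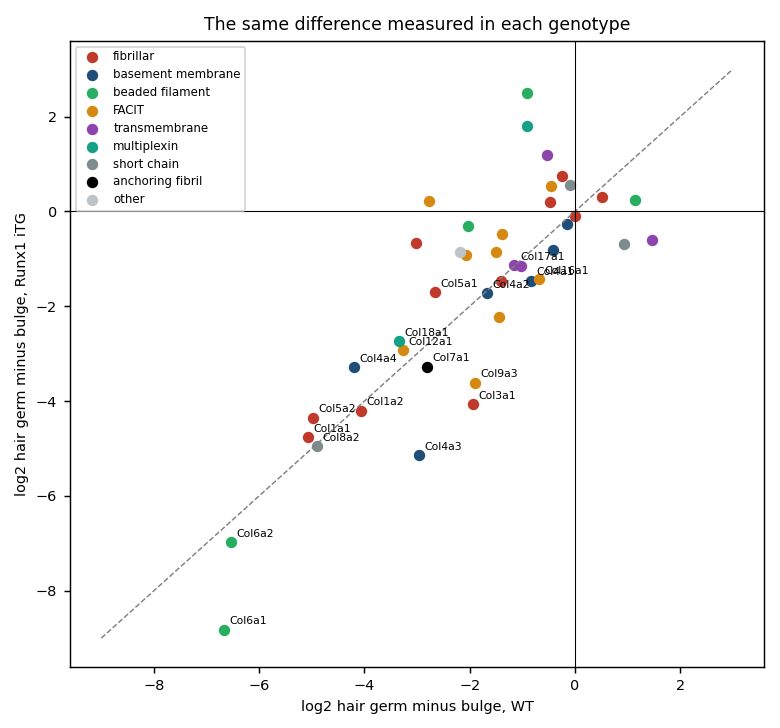
Hair germ minus bulge difference in log2 intensity of each of the 42 collagen genes, in WT mice on the horizontal axis and in Runx1 iTG mice on the vertical axis, with the dashed line of equal differences; genes that passed in a genotype are labelled. The labelled genes fall in the lower left quadrant in both genotypes, with Col6a1 and Col6a2 farthest from 0.

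Fold sizes in the 2 genotypes were close for some members and apart for others. Col1a1 was 27.2-fold lower in hair germ of Runx1 iTG and 33.6-fold lower in hair germ of WT. Col8a2 was lower by 31.0-fold in Runx1 iTG and by 29.9-fold in WT, and Col17a1 by 2.19-fold in Runx1 iTG and by 2.22-fold in WT. Col7a1 was lower by 9.68-fold in Runx1 iTG and by 7.02-fold in WT, Col18a1 by 6.70-fold in Runx1 iTG and by 10.2-fold in WT, and Col4a4 by 9.75-fold in Runx1 iTG and by 18.3-fold in WT. The log2 differences were further apart, with at least 1 hair germ array below background, for Col6a1 (-8.82 in Runx1 iTG and -6.67 in WT), Col4a3 (-5.14 in Runx1 iTG and -2.97 in WT), Col3a1 (-4.06 in Runx1 iTG and -1.95 in WT) and Col9a3 (-3.61 in Runx1 iTG and -1.90 in WT). The interaction did not pass for any of these. Over the 42 genes, 32 had the same sign in both genotypes, and the differences correlated across genes with Pearson's r 0.819 and Spearman's rho 0.768. These are given as a description, since genes are not independent and dim genes scatter around 0. In pairs of populations within a genotype, 24 collagens lay lower without overlap in Runx1 iTG hair germ, where 27.6% of all genes did, and 30 in WT hair germ, where 28.8% did. A higher level without overlap was seen for 2 collagens in each genotype, where 23.9% of all genes in Runx1 iTG and 23% in WT were higher.

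The comparison of Runx1 iTG with WT asked whether collagen transcripts differed where Runx1 was raised for 1 day. By limma 0 of the 42 genes passed in hair germ, in bulge or in the average of both, where 0.0275%, 0.022% and 0.0495% of all genes passed. By direction, 0.0165% of all genes were higher and 0.011% lower in Runx1 iTG hair germ, 0.022% were higher and 0% lower in bulge, and 0.033% were higher and 0.0165% lower in the average. At an unadjusted p under 0.05, 9 collagens were reached in hair germ (6.78% of all genes), 2 in bulge (5.96%) and 8 in the average (8%). Of the 9 in hair germ, 4 had a positive and 5 a negative difference. Of the 8 in the average, 3 were positive and 5 negative. Medians over the 42 genes were 0.05 in hair germ, -0.15 in bulge and -0.19 in the average, against 0.03, 0.02 and 0.03 over all genes. By class the medians in the average were -0.22 for fibrillar, -0.47 for basement membrane, -0.10 for beaded filament and 0.17 for FACIT genes. Both arrays of Runx1 iTG hair germ lay below both of WT for 9 collagens, where 15.8% of all genes did, and above for 7, where 19.9% did. In bulge they lay below for 8, where 16.4% of all genes did, and above for 5, where 17.3% did. Over both populations, 0 collagens had all 4 Runx1 iTG arrays below all 4 WT arrays, where 1.07% of all genes did, and 1 had them above, where 1.47% did.

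The members nearest to the threshold differed between the populations. In bulge, Col5a1 had 895 and 812 units in Runx1 iTG and 5099.7 and 1531 in WT (-1.71, SE 0.48, adjusted p 0.669), with WT replicate 1 above WT replicate 2 by 3.33-fold. Col6a4, a type VI chain, had 5.86 and 9.35 units in Runx1 iTG bulge, both below background, and 44.3 and 52.6 in WT bulge, so it was at least 1.55-fold lower (adjusted p 0.722). Col4a6 in bulge had 573 and 970.03 units in Runx1 iTG and 1072 and 1250.3 in WT (-0.63, SE 0.31, adjusted p 0.874). In hair germ, Col8a1 had 204 and 519 units in Runx1 iTG and 808 and 863 in WT (-1.36, SE 0.45, adjusted p 0.568). Col6a1 in hair germ was below background on both Runx1 iTG arrays and just above it on both WT arrays, at least 1.46-fold lower (adjusted p 0.606). Col24a1, a minor fibrillar chain, had 24.0 and 25.985 units in Runx1 iTG hair germ and 3.36 and 2.42 in WT hair germ. All 4 values were below background, so no fold is given, although its unadjusted p was the smallest of the 42 (adjusted p 0.401). Col1a1 in hair germ had 151 and 445 units in Runx1 iTG and 138 and 95.7 in WT (1.17, SE 0.46, adjusted p 0.653). The arrays did not overlap, but the Runx1 iTG replicates lay further apart than the lower of them lay from WT.

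The 3 genes Col17a1, Col7a1 and Col6a1 can be set beside these. Col17a1 differed by -0.19 in hair germ and by -0.21 in bulge between Runx1 iTG and WT, each with an SE of 0.21. Col7a1 differed by -0.71 in hair germ and by -0.24 in bulge, each with an SE of 0.33, and its hair germ arrays overlapped. Col6a1 differed by -0.39 in bulge (SE 0.89), where its arrays overlapped. None of these passed, and with 2 arrays a group real changes can be missed. In simulated data for the comparison of populations in WT, the test recovered 13.2% of genes changed by 1 on the log2 scale. It recovered 70.4% of those changed by 2 and 92.8% of those changed by 3. Changes were all decreases, planted in a small part of the genes and only outside the dimmest part of the array. Recovery at an adjusted p depends on how many genes change, so recovery between Runx1 iTG and WT can differ. The shares are averages over genes. They do not give the recovery for Col17a1 or Col7a1, whose SE lay below the median of 0.515 over genes. Nor do they for Col6a1, whose SE of 0.89 lay above it.

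**Figure D4:**
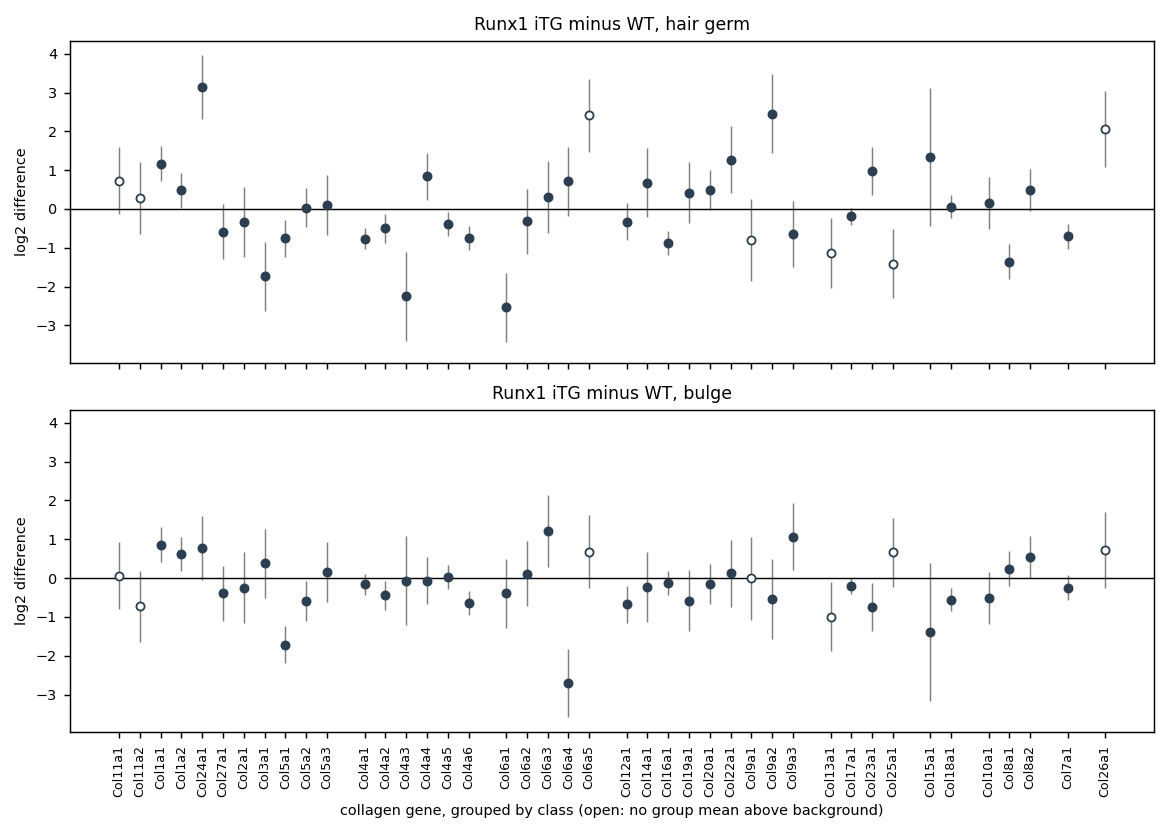
Runx1 iTG minus WT difference in log2 intensity of the 42 collagen genes, with its SE, in hair germ (upper panel) and bulge (lower panel). Open points are genes whose mean was above background in none of the 4 groups. A filled point can therefore lie below background in both groups of its panel, as Col24a1 does in hair germ (means of 25.0 in Runx1 iTG and 2.85 in WT). The points scatter on both sides of 0 in both panels and none passed the test.

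Among genes that handle collagen, some were lower in hair germ as well. Of 48 measured genes in 4 lists, 22 were lower in hair germ and 1 was higher, averaged over genotypes, where 9.11% of all genes were lower and 9.17% higher. Without WT hair germ replicate 2, 15 of the 48 passed. Of the 23 genes, 11 passed in all 15 settings tried. Among 17 genes for chain modification and folding, 6 were lower. Serpinh1, the collagen chaperone HSP47, had 4224 and 2335 units in Runx1 iTG hair germ and 9514 and 7566 in Runx1 iTG bulge. The WT values were 2978 and 3207 in hair germ and 10108 and 9342 in bulge, and it was 2.91-fold lower in hair germ (-1.54, SE 0.20, adjusted p 0.000576). P3h4, a partner of the lysyl hydroxylation complex, had 255 and 493 units in Runx1 iTG hair germ and 3517 and 3506 in Runx1 iTG bulge. Its WT arrays read 353 and 254 in hair germ and 1901 and 2014 in bulge, and it was 8.04-fold lower (-3.01, SE 0.24, adjusted p 3.03e-05). The lysyl hydroxylases Plod1 (-1.67), Plod2 (-1.93, or -0.90 with the bound) and Plod3 (-0.95) and the prolyl 3-hydroxylase P3h2 (-1.37) were also lower. The call was lost in 9 settings for Plod2 (leaving out any 1 array except Runx1 iTG hair germ replicate 2 among them), in 5 for P3h2 (adjusted p up to 0.0978) and in 1 for Plod3. P3h2 was lost without Runx1 iTG hair germ replicate 1, Runx1 iTG bulge replicate 2, WT hair germ replicate 2 or WT bulge replicate 2. Of 10 genes for processing and cross-linking, 4 were lower: the procollagen proteinase enhancer Pcolce2 (-3.32), the lysyl oxidase relative Loxl1 (-3.66), the N-propeptidase Adamts3 (-2.89) and the tolloid-like protease Tll1 (-2.40). All 4 were above background on at most 2 of 4 hair germ arrays, and with the bound they gave -2.80, -2.84, -1.15 and -1.89 in that order. Tll1 (adjusted p 0.049) was lost in 10 settings, leaving out any 1 array except Runx1 iTG bulge replicate 1 among them. Adamts3 was lost without WT hair germ replicate 2 or WT bulge replicate 2 (adjusted p 0.0559 and 0.0558), and Loxl1 with day 20 arrays only (0.068).

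Of 9 collagen receptors, 3 were lower in hair germ: the integrin subunit Itga2 (-3.36, SE 0.41, adjusted p 0.00042), the endocytic receptor Mrc2 (-1.88) and the discoidin receptor Ddr1 (-0.71). Ddr1 was lost in 8 settings, leaving out any 1 array except Runx1 iTG hair germ replicate 2 among them, and Mrc2 in 5, among them leaving out Runx1 iTG bulge replicate 2, WT hair germ replicate 2 or WT bulge replicate 1. Of 12 hemidesmosome and basement membrane partners, 9 were lower. They were the laminin chains Lama5 (-1.86), Lamb3 (-1.74) and Lama3 (-1.44), the collagen-binding protein Sparc (-3.77), the integrin subunit Itgb4 (-1.66), the linker proteins Plec (adjusted p 0.00349) and Dst (-0.89), the proteoglycan Hspg2 (-0.95) and the tetraspanin Cd151 (-0.63). Cd151 was lost in 11 settings, leaving out any 1 array except Runx1 iTG bulge replicate 2 and the replicate block (adjusted p 0.0528) among them. Dst was lost in 7, leaving out any 1 array except Runx1 iTG hair germ replicate 2 and Runx1 iTG bulge replicate 1 among them, and Lama3 with its probe sets averaged (-0.84, adjusted p 0.292). Sparc had 594 and 1889 units in Runx1 iTG hair germ and 15721 and 18613 in Runx1 iTG bulge. For WT, it had 2201 and 846 units in hair germ and 16604 and 14779 in bulge. Nid1, nidogen 1, which links laminin to type IV collagen, was the 1 gene that was higher in hair germ. It had 299.8 and 509 units in Runx1 iTG hair germ and 31.8 and 33.4 in Runx1 iTG bulge. In the WT groups it had 155 and 334 units in hair germ and 23.1 and 76.7 in bulge, which gave 3.01 (SE 0.50, adjusted p 0.00246). The Nid1 call was lost with day 20 arrays only (adjusted p 0.0573) and with its probe sets averaged (1.69, adjusted p 0.0663). Itga6, on which cells were sorted, did not pass the test (-0.06, SE 0.16).

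Between Runx1 iTG and WT, averaged over the populations, 0 of the 48 handling genes passed by limma and 4 had an unadjusted p under 0.05, where 8% of all genes did. That share is near the background, and the values that follow are a description. Itga2 came nearest to the threshold. It had 34.2 and 12.1 units in Runx1 iTG hair germ and 269 and 141 in WT hair germ, and 313 and 454 units in Runx1 iTG bulge and 947 and 1316 in WT bulge. Both Runx1 iTG groups lay below their WT groups, by -2.41 on the log2 scale (SE 0.41), with an adjusted p of 0.0892. When dim genes were left out before the test the adjusted p was 0.0483. That filter kept genes with a mean above background in at least 1 of the 4 groups. The compared groups thus decide it, and this value is a description only. The other 3 were Lama3 (-0.75, adjusted p 0.262), Plod2 (1.57, adjusted p 0.441) and P3h4 (0.54, adjusted p 0.607). The remaining genes with the smallest p in each list, Mia3, Loxl4, Bmp1, Adamts3, Itga10, Itga1, Itgb4 and Nid2, had adjusted p between 0.676 and 0.808.

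Since most skin fibrillar collagen comes from fibroblasts, markers of other cells are given beside the fibrillar and type VI results. Of 10 dermal fibroblast markers other than collagens, 9 were measured. Their summed intensity was 746 to 907 in Runx1 iTG hair germ and 1399 to 1711 in Runx1 iTG bulge, and 964 to 1690.3 in WT hair germ and 1329 to 2339 in WT bulge. Most of each sum was Thy1, with 518 and 605 units in Runx1 iTG hair germ and 1086 and 1313 in Runx1 iTG bulge, and 1429 and 775 in WT hair germ and 1959 and 1158 in WT bulge. Of the 9, 1 was lower in hair germ past the threshold, Twist2 (adjusted p 0.0259), which was above background on 1 array in all. Thy1 and the other 7 did not pass. Clec3b had 15.2 and 19.6 units in Runx1 iTG hair germ and 23.9 and 112 in Runx1 iTG bulge, and 19.8 and 12.1 in WT hair germ and 208 and 38.7 in WT bulge (-2.06, adjusted p 0.0814). Pdgfrb (0.58, adjusted p 0.513) reached 155 units on a Runx1 iTG bulge array and Pdgfra (1.88, adjusted p 0.169) reached 81.9 on a Runx1 iTG hair germ array. The highest values on any array were 63.2 for Dcn, 37.6 for Mfap5, 28.4 for Lum and 24.1 for Dpt. Of 7 smooth muscle and pericyte markers, Cspg4 and Myh11 were lower in hair germ. Their list summed to 661 to 973 in Runx1 iTG hair germ and 4147 to 4232 in Runx1 iTG bulge, and 1019 to 1338 in WT hair germ and 4506 to 7127 in WT bulge, and most of it was Cspg4. Hhip of 6 dermal papilla markers, Tek of 7 endothelial markers and Dct of 7 melanocyte markers were lower in hair germ, where 9.11% of all genes were, and 1 call in lists of this size is near that share. Papilla markers summed to 185 to 279 in Runx1 iTG hair germ and 322 to 359.7 in Runx1 iTG bulge, and 150.2 to 221 in WT hair germ and 252 to 254 in WT bulge. Endothelial markers summed to 104 to 188 in Runx1 iTG hair germ and 201 to 361 in Runx1 iTG bulge, and 79.5 to 82.8 in WT hair germ and 298 to 332 in WT bulge. Melanocyte markers summed to 113 to 328 in Runx1 iTG hair germ and 194 to 394 in Runx1 iTG bulge, and 224 to 266 in WT hair germ and 328 to 544 in WT bulge. By limma 0 of 3 Schwann cell and 0 of 7 immune markers passed, and 1 and 0 of them had an unadjusted p under 0.05. The part of such cells in the collagen differences was not tested.

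**Figure D5:**
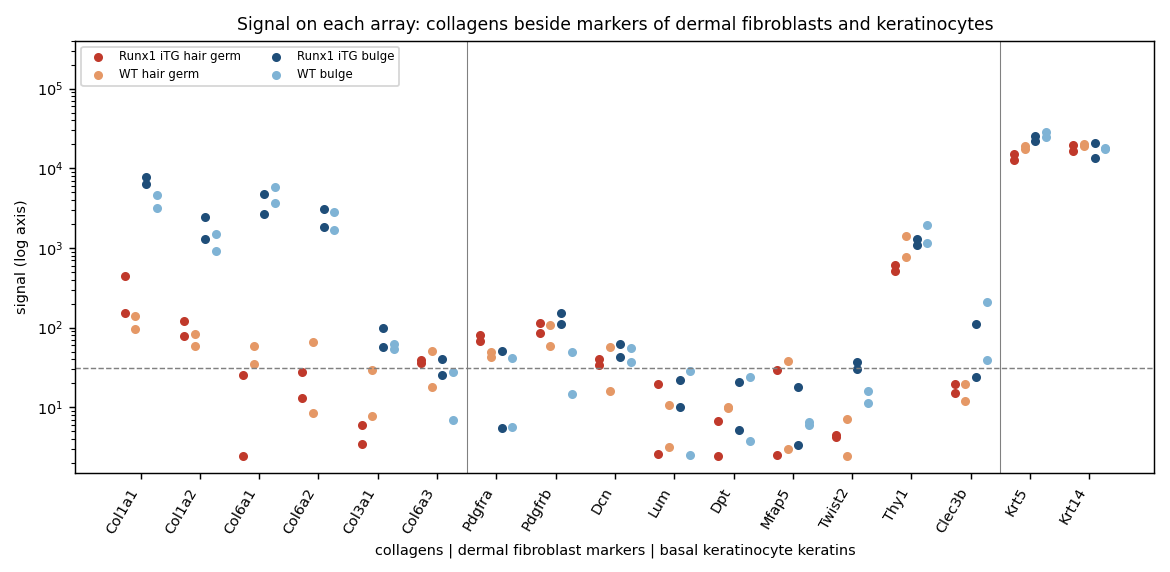
Scaled intensity on a log axis, by array, of fibrillar and type VI collagens, of dermal fibroblast markers and of the keratinocyte genes Krt5 and Krt14, with Runx1 iTG hair germ, WT hair germ, Runx1 iTG bulge and WT bulge side by side and the dashed line at the background of 31.1. In bulge Col1a1, Col1a2, Col6a1 and Col6a2 lie at 911 or above. Of the fibroblast markers in bulge, Thy1 lies between 1086 and 1959 and Dcn between 37.0 and 63.2. Lum, Dpt and Mfap5 lie below the dashed line there, and Pdgfra and Twist2 on both sides of it. Clec3b and Pdgfrb reach at most 208 and 155 in bulge.

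Other probe sets of the same genes gave a check on the choice of 1 probe set per gene. The 12 genes that passed and had further probe sets held 18 of them, of which 16 were lower in hair germ and 15 passed over all 45037 probe sets. The second probe set of Col1a1 gave -5.24, that of Col18a1 -3.22 and that of Col6a2 -6.29. Sizes did not hold for every gene. A further probe set of Col1a2 gave -1.27 and did not pass (adjusted p 0.295), where the brightest gave -4.13. The second of Col4a3 gave -1.98, where the brightest gave -4.05, and a further one of Col12a1 gave -1.51, where the brightest gave -3.10. The exceptions in sign, the second probe set of Col3a1 and 1 of Col9a3, were below background on all arrays. Probe sets disagreed on the call for some genes that had not passed, such as Col20a1 (given above) and Col23a1. The Col23a1 probe set with the highest mean gave 0.33, while each of the others was higher in hair germ. The first of these had 184 and 259 units in Runx1 iTG hair germ and 84.0 and 50.6 in Runx1 iTG bulge, and 192 and 277 in WT hair germ and 41.2 and 7.997 in WT bulge (2.71, SE 0.56, adjusted p 0.0104). The second had 319 and 151 units in Runx1 iTG hair germ and 27.1 and 32.5 in Runx1 iTG bulge, and 225 and 189.8 in WT hair germ and 5.01 and 67.6 in WT bulge (3.19, SE 0.75, adjusted p 0.0195). These were the 2 collagen probe sets that passed with a higher level in hair germ, and no call is therefore made for Col23a1.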

How the data were processed

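The authors deposited linear intensity values for 45101 probe sets of an Affymetrix mouse array. Per the labels, 5 ng of total RNA went through whole-transcriptome amplification (NuGEN Ovation Pico) and biotin labelling. No source used here names the program that summarised the probes. By the values, each array had a trimmed mean of 500 (2% taken off each end). Medians lay between 101.7 and 127 on the hair germ arrays and between 131.9 and 162 on the bulge arrays.

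The 64 control probe sets were removed, arrays were brought to a common 75th percentile, values under 2.42 (3.48% of them) were set to 2.42, and the deposited intensities were then put on a log2 scale. Probe sets with 1 annotated symbol (34945) were named, and those with several (932) or none (9160) were not. The limma package (3.58.1, under R 4.3.3) fitted 4 group means over the 8 arrays. Its prior variance followed intensity, and the degrees of freedom were 4 residual and 9.87 in total. The median SE over genes was 0.515, and the number of arrays limits precision. Contrasts were hair germ minus bulge and Runx1 iTG minus WT, each within and averaged over the other factor, and the interaction. The threshold was a Benjamini-Hochberg adjusted p under 0.05 over all 18193 genes. Replicate numbers were checked for pairing: deviations of same-numbered arrays correlated by -0.03 to 0.08 over the 6 pairs of groups, so the numbers were not treated as pairs. The script was tested on simulated data for hair germ minus bulge in WT over 18193 genes. Changes were planted only in genes outside the dimmest part of the array. There it recovered 96.4% of genes changed by 4 on the log2 scale, and it called 0.0478% of unchanged ones.

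The members and lists were chosen with earlier results of these data known. Genes named in the text are Col6a1, Col17a1 and Col7a1, every collagen that passed in any contrast, the 3 brightest members of each class and the 3 with the smallest p in each comparison of a pair of groups. Of the handling lists, genes that passed and the 3 with the smallest p in the averaged comparisons are named. Other genes named were chosen after their values were seen. Protein sequences were not analysed here.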

Additional observations from a re-analysis of the deposited data

How the results depend on the processing

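The number of collagens lower in hair germ, averaged over genotypes (18), stayed within 1.5 times in each of 15 other settings (17 to 19 when 1 array at a time was left out, 16 with day 20 arrays only, 19 with the replicate block), and 16 of the 18 genes passed in every one. Col3a1 was lost when a gene's probe sets were averaged (-0.83, adjusted p 0.419) and with day 20 arrays only (adjusted p 0.0718). Col9a3 was lost in those settings (adjusted p 0.059 and 0.0575) and without WT bulge replicate 2 (0.0615). The count in Runx1 iTG (17) was 10 without the intensity trend, 8 with day 20 arrays only and 8 to 17 with 1 array left out. In WT (13) leaving out 1 array gave 8 to 14. With the replicate block these counts were 18 and 14. Col1a1, Col1a2, Col5a2, Col7a1, Col8a2 and Col18a1 passed in both genotypes under every setting. The counts between Runx1 iTG and WT and for the interaction were 0 in every setting, the block included. The hair germ minus bulge medians moved for fibrillar genes to -0.62 with an offset of 50 and -0.83 with averaged probe sets, for beaded filament genes to -0.21 with the offset and -3.04 without dim genes, and for FACIT genes to -0.80 with the offset. The FACIT median between Runx1 iTG and WT moved to -0.29 with averaged probe sets. With 1 array left out, medians between populations ran from -2.15 to -1.52 (fibrillar), -1.63 to -1.21 (basement membrane), -1.62 to -0.72 (beaded filament) and -1.69 to -1.03 (FACIT). Between Runx1 iTG and WT they ran from -0.33 to 0.21, -0.60 to -0.25, -0.85 to 0.64 and -0.17 to 0.15 for the same classes. Handling genes that passed between populations (23) numbered 15 to 22 with 1 array left out and 22 with the block. Between Runx1 iTG and WT 1 of them, Itga2, passed without dim genes, a filter that the compared groups decide. For single genes 0 results changed sign past the threshold, 133 of 1206 were weaker and 1 was stronger. The settings for handling genes were chosen after seeing the data. Over all genes the count between populations in Runx1 iTG (1775) was 708 without the intensity trend and 361 with day 20 arrays only. A fit to the compared groups alone could not be run for averaged contrasts. The causes were not tested.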

Other observations

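Col15a1, the basement membrane multiplexin related to Col18a1, followed the replicate number rather than the group. Its intensity was 41.2 in Runx1 iTG hair germ, 5.26 in WT hair germ, 2.94 in Runx1 iTG bulge and 11.2 in WT bulge on the replicate 1 arrays. On the replicate 2 arrays it was 68.0, 83.7, 77.8 and 141 in the same order of groups. Replicate 1 was male-like and replicate 2 female-like in every group, and in Runx1 iTG replicate 2 was also a day older. In all, 10 of the 42 collagens were higher on replicate 2 than on replicate 1 in all 4 groups, among them Col1a2, Col4a1, Col4a2, Col5a2, Col6a1 and Col12a1, and 1 was lower in all 4. Over all 18193 genes 7.12% were higher and 5.43% lower on replicate 2 in all 4 groups. No test was made of this pattern, which was noticed in the data.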
